A study of Mus musculus with 4 samples.

Results

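The replication-dependent histone genes were examined in 4 microarrays of mouse CD8+ T cells, the T cells that kill infected and tumour cells. They were chosen by name: every feature of the array whose gene symbol is that of an H1, H2A, H2B, H3 or H4 gene of the clustered replication-dependent families. Of 22206 gene features, 53 met this rule. The features of H3c14 and H3c15 held identical values and were counted once, which left 52 features: H1f2 and 3 other H1 features, 13 for H2A, 15 for H2B, 9 for H3 and 11 for H4.

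The cells were isolated from C57/BL6 mouse lymph nodes and spleens and were activated in culture for 3 days with beads carrying antibodies to CD3 and CD28, in medium with IL-2. There were 2 control cultures without further addition and 2 cultures with 25 µM spermidine, a polyamine. Both groups shared the stimulation, the cytokine and the culture time, and RNA from each culture was read on 1 Clariom S Mouse array. The labels call the cultures biological replicates but name no animals, so a p-value here covers only the variation among these 4 samples, which may be technical.

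Core histones H2A, H2B, H3 and H4 form the octamer around which DNA is wrapped, and the linker histone H1 binds where DNA enters and leaves it. Dividing cells make them in bulk during S phase, when new DNA has to be packaged, from many near-identical gene copies that lie in clusters. Most of these transcripts end in a stem-loop bound by the protein Slbp instead of a poly(A) tail and are degraded when DNA synthesis stops. Activated CD8+ T cells divide fast and express these genes strongly. The labelling kit used here primes along the whole transcript and does not need a poly(A) tail.

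Values are log2 signals, so a difference of -1 means a signal lower by a factor of 2. Array medians over gene features were close, from 5.13 to 5.25. The CD8+ T cell identity was checked by 8 markers, all above background. Of the 8, 6 were lower with spermidine, 4 of them without overlap (18.4% of all features), with a median log2 difference of -0.13. Cd8b1 differed by -0.34, Cd3e by -0.33, Cd5 by 0.24 and Cd28, higher without overlap, by 0.43; 0 of the 8 were lower at an unadjusted p under 0.05. Cd8a stood at 16.66 and 16.68 in the control arrays and at 16.59 and 16.57 with spermidine. The background level used here is 6.35, the mean over arrays of the 95th percentile of the antigenomic probe sets, whose probes match no mouse sequence. Of the 7 B cell markers 7 were higher with spermidine, 4 of them without overlap (18.3% of all features). Their median log2 difference was 0.34 (0.19 without spermidine replicate 1). Of the 7, 2 reached background (Cd79a and Cd79b). The log2 of the summed signal of the 7 was 8.77 to 8.84 in controls and 9.08 to 9.42 with spermidine. Of the 8 macrophage markers 0 reached background, and the log2 of their summed signal was 6.78 to 6.82 in controls and 6.85 to 6.94 with spermidine. Of the 8 CD4, NK cell and neutrophil markers 3 reached background (Cd4, Klrb1c and Zbtb7b), 6 were higher, and their summed signal was 8.72 to 8.81 against 8.96 to 9.07 on the log2 scale. At an unadjusted p under 0.05, 2 of the 7 B cell markers (Cd79a and Cd22) were higher, as were Lyz2 of the macrophage list and Zbtb7b. Cd22 and Lyz2 lay below background. Of all features 3.38% were higher and 3.64% lower at that threshold. The 8 hybridisation and labelling controls averaged 7.67 and 7.58 on control arrays, below the 7.98 and 8.15 read with spermidine. The part of these shifts in the histone differences was not tested.

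The spermidine cultures had lower histone signals. Of the 52 features, 48 had a negative difference and 45 lay lower in both spermidine arrays than in both control arrays, which is 86.5% of the members; of all gene features 18.4% did so. The median log2 difference was -0.90 over the members and -0.01 over all gene features. A difference of -0.5 or below was found in 43 members and of -1 or below in 21. The members were read on the same 4 arrays, and copies of near-identical sequence may share probes. Their counts are therefore not counts of independent readings. In bulk RNA, fewer cells in S phase and less histone RNA per cell cannot be told apart.

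None of these differences passed the test across all features. By limma with Benjamini-Hochberg adjustment, 0 of 52 members and 0 of 22206 features (0%) had an adjusted p under 0.05, and the lowest adjusted p of a member was 0.637. At an unadjusted p under 0.05, 42 members were lower (80.8%) where 3.64% of all features were. In the other direction 1 member, H1f2, passed the unadjusted threshold, against 3.38% of all features. The count of 42 became 12 without control replicate 1 and 18 without spermidine replicate 2, where 2.02% and 2.36% of all features passed. The count without overlap cannot fall when an array is left out, so its range of 46 to 48 is no sign of stability. In those settings 32.8% to 37.3% of all features did not overlap downward.

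**Figure D1:**
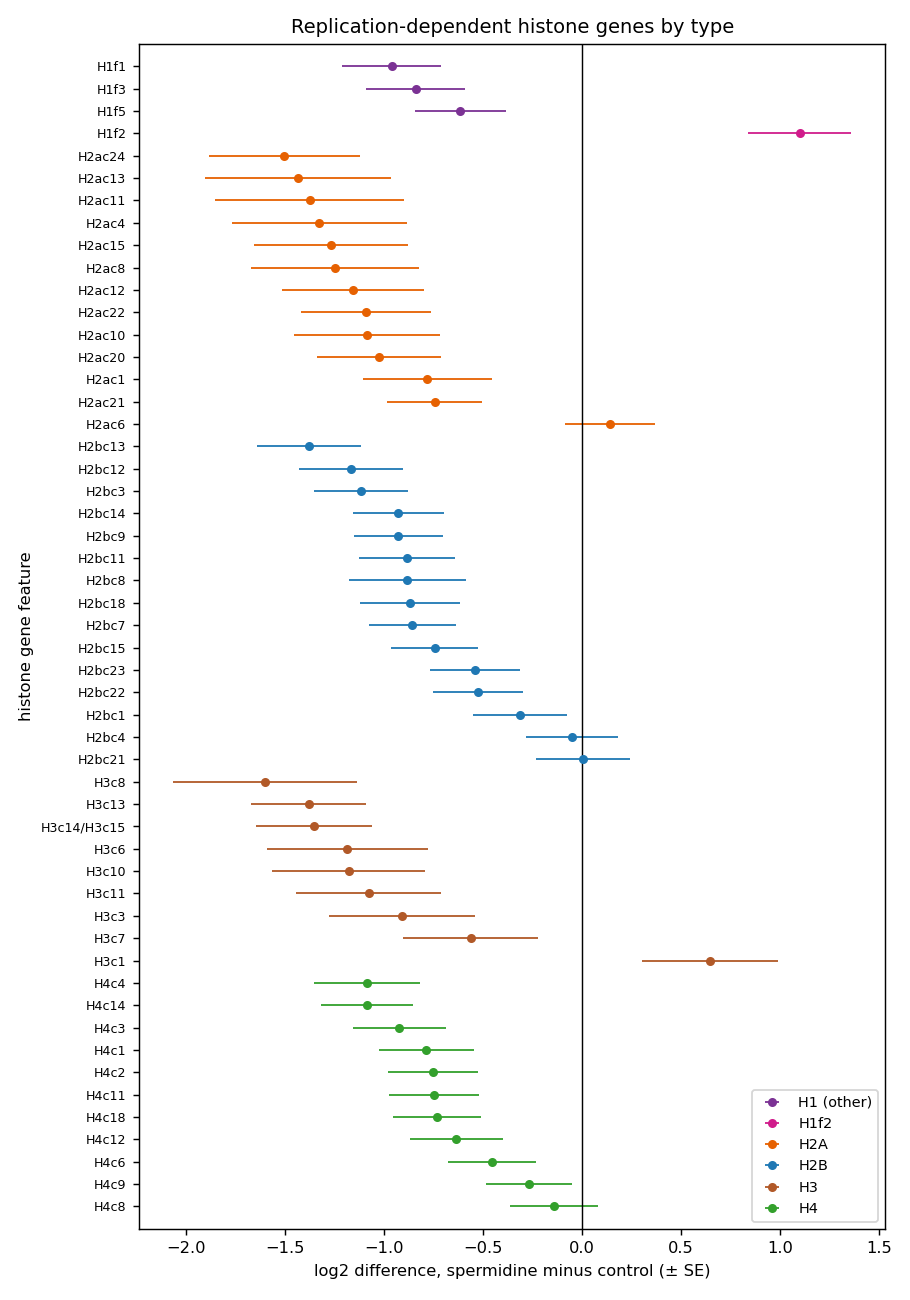
Log2 difference between spermidine and control cultures (x axis, points, bars ± SE from limma, 2 arrays per group) for the 52 histone gene features, ordered within each histone type. Most points lie between -0.5 and -1.60; H1f2 lies at 1.10, H3c1, which is below background, at 0.64, and H2ac6, H2bc4, H2bc21 and H4c8 lie near 0.

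The 4 measured linker histone genes, H1f4 not among them, did not share a direction. H1f2, which encodes the linker histone H1.2, read 8.06 and 8.63 without spermidine and 9.40 and 9.48 with it. Both spermidine arrays were above both controls, and the mean signal was 2.14-fold higher (log2 difference 1.10 ± 0.26, SE; limma unadjusted p = 3.02e-03, adjusted p = 0.637). Only 2 members were higher without overlap, H1f2 and H2ac6, or 3.85% of members against 18.3% of all features. The other measured linker genes went the opposite way.

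H1f1 read 12.57 and 12.45 in controls and 11.78 and 11.32 with spermidine, a log2 difference of -0.96 ± 0.25 (SE). H1f3 read 12.14 and 11.81 against 11.32 and 10.95, a difference of -0.84 ± 0.25 (SE). H1f5 read 12.47 and 12.31 against 11.90 and 11.64, a difference of -0.62 ± 0.23 (SE). All 3 were lower without overlap. They encode H1.1, H1.3 and H1.5, close relatives of H1.2 made in dividing cells. When any 1 array was left out the difference of H1f2 ran from 0.81 to 1.39, and the median of the other 3 from -1.02 to -0.66.

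**Figure D2:**
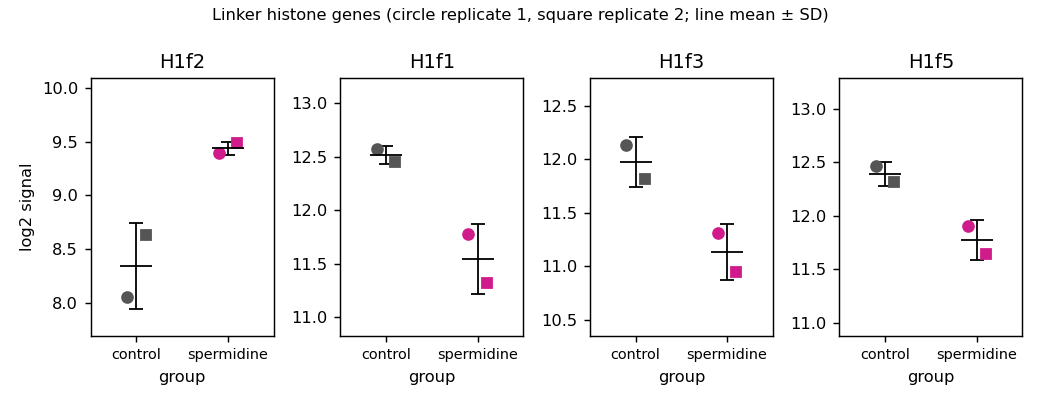
Log2 signal (y axis, each panel spanning the same number of log2 units) of the 4 measured H1 genes in control and spermidine cultures; points are arrays and lines the mean ± SD (n = 2). H1f2 is higher in both spermidine arrays, and H1f1, H1f3 and H1f5 are lower in both.

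The promoters of the 4 linker genes are shown because these genes differ in direction while their upstream sequences share elements. Each is the 150 bases before the RefSeq transcript start (build GRCm38.p6, 5′ to 3′ on the gene's strand), with capitals marking 3 motifs on either strand. The first, CCAAT, is bound by NF-Y. The TATA box of core promoters was searched as TATAAA. An element known from H1 genes was searched as AAACACA.
H1f2 (chr13:23738657-23738806, plus strand): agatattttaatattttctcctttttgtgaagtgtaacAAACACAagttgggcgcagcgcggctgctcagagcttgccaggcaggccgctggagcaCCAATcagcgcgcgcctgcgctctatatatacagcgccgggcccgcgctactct
H1f1 (chr13:23763518-23763667, plus strand): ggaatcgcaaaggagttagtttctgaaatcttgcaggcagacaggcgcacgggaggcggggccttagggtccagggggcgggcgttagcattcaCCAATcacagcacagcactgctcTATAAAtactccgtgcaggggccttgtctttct
H1f3 (chr13:23554882-23555031, plus strand): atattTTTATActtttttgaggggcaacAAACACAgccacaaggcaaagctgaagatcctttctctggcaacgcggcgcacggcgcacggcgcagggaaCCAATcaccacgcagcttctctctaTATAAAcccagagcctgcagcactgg
H1f5 (chr13:21780626-21780775, minus strand): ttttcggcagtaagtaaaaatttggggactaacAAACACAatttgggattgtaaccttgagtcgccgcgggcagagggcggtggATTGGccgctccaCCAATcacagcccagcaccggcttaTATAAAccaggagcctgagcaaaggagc

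Over the full windows, 250 bases before to 50 after the start, CCAAT was present for all 4 linker genes and in 37.4% of the 32851 promoter windows of the table. AAACACA was present for H1f2, H1f3 and H1f5 and in 7.18% of all windows. TATAAA was present for H1f1, H1f3 and H1f5 and in 13.6% of all windows. These exact letters are not in the H1f2 window, whose printed stretch holds the similar letters tatatata, which the search does not match. The matches are descriptions of letters and not of bound sites.

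The H2A genes showed some of the lowest values. Of 13 features 12 were lower without overlap (18.4% of all features) and at an unadjusted p under 0.05 (3.64% of all features). The median log2 difference was -1.16, or a signal 2.23-fold lower. H2ac24 read 17.72 and 17.00 in controls and 16.37 and 15.34 with spermidine (-1.51 ± 0.38, SE). Its values are identical to those of a feature with no symbol, so the signal cannot be given to this copy alone. H2ac13 (-1.44), H2ac11 (-1.38) and H2ac4 (-1.33) followed. With control replicate 1 left out, 0 of the 12 passed the unadjusted threshold and the median was -0.88. With spermidine replicate 2 left out, 1 passed, the median was -0.65 and H2ac24 stood at -0.99. The least negative of the lower H2A values above background was that of H2ac21, at 8.10 and 8.13 against 7.56 and 7.17 (-0.75 ± 0.24, SE). H2ac1, which encodes the testis H2A variant TH2A, read 9.64 and 8.79 in controls and 8.67 and 8.20 with spermidine. Its arrays were separated by less than the gap between the control arrays.

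The H3 genes were lower by a similar amount. Of 9 features 7 were lower without overlap (18.4% of all features) and at an unadjusted p under 0.05 (3.64% of all features). The median was -1.18. H3c8 had the most negative value of all members: 14.38 and 13.63 in controls and 13.13 and 11.67 with spermidine, a signal 3.04-fold lower (-1.60 ± 0.46, SE). Its difference was -0.88 without spermidine replicate 2 and -2.33 without spermidine replicate 1. Leaving out control replicate 1 reduced the unadjusted count of 7 to 2. Leaving out spermidine replicate 2 reduced it to 3 and put the median at -0.61. H3c13, at 16.83 and 16.60 against 15.70 and 14.96, differed by -1.38 ± 0.29 (SE). The shared feature of its neighbours H3c14 and H3c15 differed by -1.35 and H3c6 by -1.19. H3c3 read 14.10 and 13.37 in controls and 13.30 and 12.35 with spermidine (-0.91 ± 0.37, SE), so its first spermidine array lay only just under the lower control. The arrays of H3c7 overlapped, with 12.78 and 12.63 against 12.66 and 11.63. H3c1 read 4.48 and 5.44 against 5.84 and 5.36, below background in every array, where a difference is no measure of a fold.

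The H2B genes had a median of -0.87. Without overlap 13 of 15 features were lower (18.4% of all features), 12 of them at an unadjusted p under 0.05 (3.64% of all features). H2bc13 read 13.80 and 13.62 in controls and 12.60 and 12.06 with spermidine, a signal 2.60-fold lower (-1.38 ± 0.26, SE; limma unadjusted p = 7.48e-04, adjusted p = 0.637). Both spermidine arrays lay more than 1 log2 unit under the controls. H2bc12 (-1.17), H2bc3 (-1.12) and H2bc14 (-0.93) followed. When control replicate 1 was left out 6 passed the unadjusted threshold, and when spermidine replicate 2 was left out 8 did. H2bc22, with 10.64 and 10.84 against 10.12 and 10.30, had a smaller difference of -0.53. H2bc1, the testis H2B gene TH2B, and H2bc21 lay below background in both groups.

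The H4 genes, all of which code for the same protein, had the smallest median of the core types, -0.75. Lower without overlap were 10 of 11 features (18.4% of all features), and 8 were lower at an unadjusted p under 0.05 (3.64% of all features). H4c14 read 12.81 and 12.82 in controls and 11.90 and 11.57 with spermidine, a signal 2.12-fold lower (-1.09 ± 0.23, SE). H4c4 read 15.18 and 15.03 against 14.32 and 13.72 (-1.09 ± 0.27, SE). Both genes were separated by more than the gap within either group. H4c3 (-0.92) and H4c1 (-0.79) came next, and H4c9 was at -0.27. Of the 11, 3 passed the unadjusted threshold if control replicate 1 was dropped and 5 if spermidine replicate 2 was dropped. H4c18 (-0.73) has the same values as a feature with no symbol. Other copies of near-identical sequence may share probes as well, so single H4, H3 and H2A values are uncertain as to the copy.

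The 4 core types were not separated evenly in the cultures. In spermidine replicate 1 the median deviation from the control mean was alike: -0.65 for H2A, -0.75 for H2B, -0.61 for H3 and -0.66 for H4. In spermidine replicate 2 it was -1.66 for H2A and -1.74 for H3, against -0.90 for H2B and -0.83 for H4. The median gap between the spermidine arrays was 1.02 for H2A and 1.03 for H3, and 0.22 for H2B and 0.17 for H4. The control arrays were also further apart for H2A (0.50) and H3 (0.58) than for H2B (0.20) and H4 (0.15). The order of the types depended on 1 array: without spermidine replicate 2 the medians were -0.65 for H2A, -0.61 for H3, -0.75 for H2B and -0.66 for H4. Without spermidine replicate 1 they were -1.66, -1.74, -0.90 and -0.83 in the same order. In all, 44 of the 52 members were lower in spermidine replicate 2 than in replicate 1, and 40 were lower in control replicate 2 than in replicate 1. The difference between types was not tested.

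**Figure D3:**
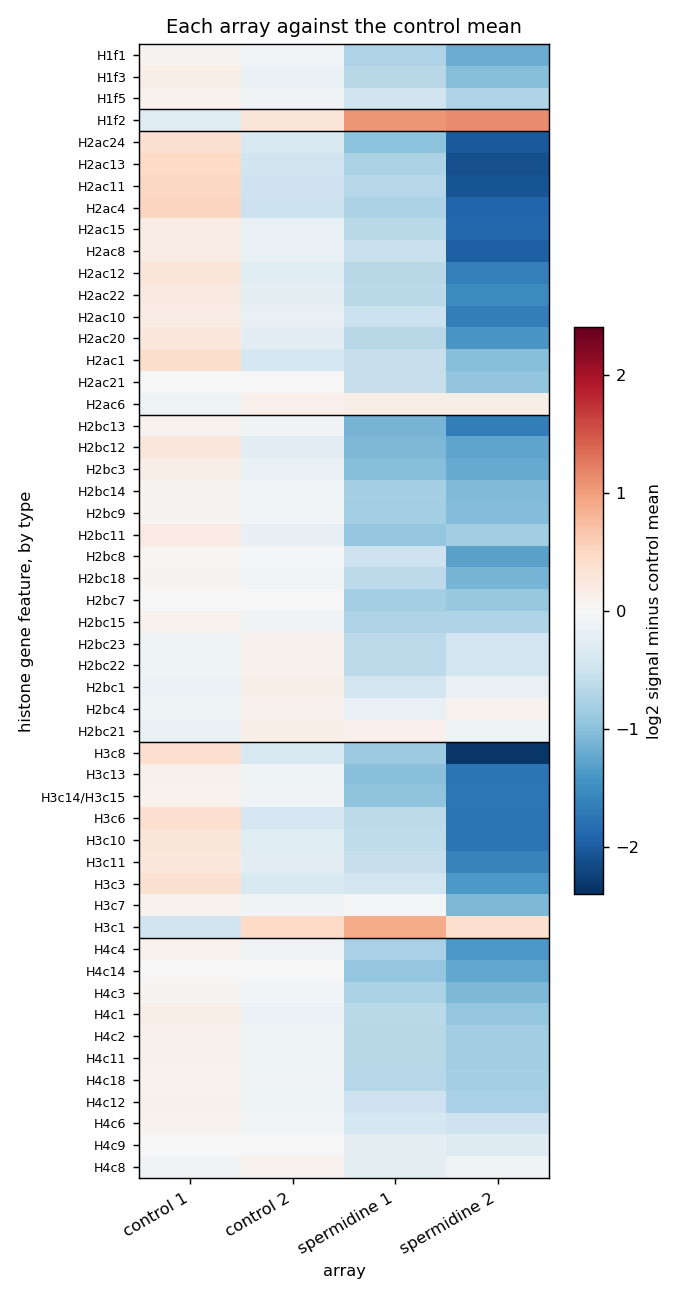
Log2 signal of each of the 52 features (rows, grouped by type, with lines between types) in each of the 4 arrays (columns), as the difference from the feature's control mean; blue is lower and red higher. Most H2A and H3 rows are darkest blue in spermidine replicate 2, except H2ac6 and H3c1, which lie above their control means there, while most H2B and H4 rows are of more even blue in both spermidine arrays.

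**Figure D4:**
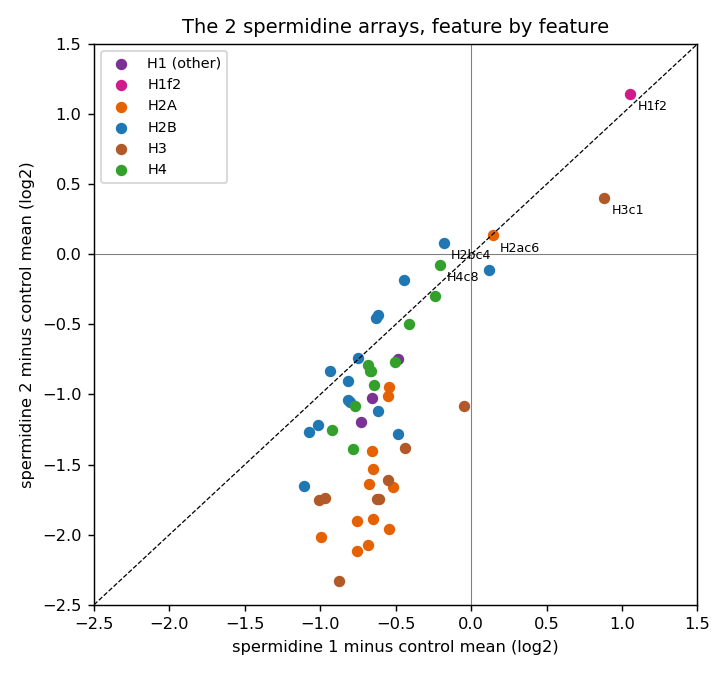
Log2 difference from the control mean in spermidine replicate 1 (x axis) and replicate 2 (y axis) for each feature, coloured by type; the dashed line marks equal values, and both axes share the same control mean. Most H2A and H3 points fall far under the line, H2ac6 lies on it, most H2B and H4 points lie close to it, and H1f2 lies at 1.06 and 1.14.

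A few features apart from H1f2 did not share the lower signal; they were picked out here after their values were seen. H2ac6 read 9.71 and 9.95 in controls and 9.97 and 9.96 with spermidine (0.14 ± 0.23, SE), so the arrays did not overlap but the shift was smaller than its error. H2bc4 read 11.21 and 11.41 against 11.13 and 11.39 (-0.05 ± 0.23, SE), with overlapping groups. H4c8 read 13.04 and 13.21 against 12.92 and 13.05 (-0.14 ± 0.22, SE), also with overlap. For these 3 the difference was within the error, which does not show that they were equal. H2bc21 read 5.79 and 6.11 against 6.07 and 5.84, all below background. In human cells the counterparts of H1f2, H2ac6 and H2bc21 are known to yield polyadenylated transcripts besides the stem-loop form. The form of the transcripts was not measured here, and a link between form and difference was not tested.

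H2ac6 and H2bc4 are next to each other in the genome. H2A and H2B genes often lie in head-to-head pairs with a common upstream region. Among the members 10 neighbouring H2A and H2B pairs were measured, by the order of genes in RefSeq (GRCm38.p6, used for order only). Strand was not part of this choice, so not every pair is head-to-head: H2ac4 and H2bc3 both lie on the plus strand. In 8 pairs both genes were lower without overlap, for example H2ac13 with H2bc13 (-1.44 and -1.38), H2ac12 with H2bc12 (-1.16 and -1.17) and H2ac4 with H2bc3 (-1.33 and -1.12). Of single features, 18.4% of all gene features were lower without overlap. The 8 pairs include H2ac1 with H2bc1 (-0.78 and -0.32), of which H2bc1 lay below background. In H2ac6 with H2bc4 neither gene was lower without overlap (0.14 and -0.05). In the remaining pair H2ac20 was lower (-1.03) beside H2bc21, which was below background. The H2A gene had the more negative value in 8 of 10 pairs, among them those of H2bc1 and H2bc21, which lay below background. The 2 types did not keep this order in each array. In spermidine replicate 1 the median deviation from the control mean was -0.65 over all H2A members and -0.75 over all H2B members. In replicate 2 it was -1.66 and -0.90.

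The upstream stretches of H2ac6 and of H2ac8, an H2A gene with a lower signal (16.002 and 15.66 in controls, 15.29 and 13.87 with spermidine), are shown because both hold letters of the same 3 motifs. Their places differ. The TATAAA letters of H2ac6 lie close to its start. Those of H2ac8 lie on the other strand, at the end of the stretch far from its start. H4c4 is added for the element found in most H4 windows. The stretches are again 150 bases before the start in GRCm38.p6 on the gene's strand, and capitals mark, on either strand, the CCAAT and TATA motifs given above with 2 others. The octamer bound by Oct-1 in H2B promoters was searched as ATTTGCAT. The core of an element of H4 promoters was searched as GGTCCG. None of the motifs searched contains another.
H2ac6 (chr13:23683960-23684109, minus strand): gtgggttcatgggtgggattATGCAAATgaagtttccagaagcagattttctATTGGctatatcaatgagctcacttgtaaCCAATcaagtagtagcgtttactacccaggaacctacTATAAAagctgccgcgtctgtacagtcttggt
H2ac8 (chr13:23571221-23571370, minus strand): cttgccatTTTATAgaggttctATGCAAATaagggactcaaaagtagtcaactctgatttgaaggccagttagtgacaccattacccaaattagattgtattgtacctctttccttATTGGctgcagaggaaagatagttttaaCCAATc
H4c4 (chr13:23581418-23581567, plus strand): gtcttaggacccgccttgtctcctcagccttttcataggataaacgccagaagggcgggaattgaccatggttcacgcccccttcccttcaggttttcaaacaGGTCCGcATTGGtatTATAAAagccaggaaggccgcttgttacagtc

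RefSeq promoter windows were matched for 48 of the 53 member symbols. The octamer was present in 6 of 13 H2A and 6 of 13 H2B windows and in 1.74% of all windows. It was found in none of the 8 H3, 10 H4 or 4 H1 windows. Windows of neighbouring H2A and H2B genes can overlap, as those of H2ac12 and H2bc12 do, so 1 match can count for both types. CCAAT was present in all H2A, H2B and H3 windows and in 3 of 10 H4 windows. GGTCCG was present in 9 of 10 H4 windows, H4c8 included, and in 8.25% of all windows. The H2A windows with an octamer had differences from -1.33 (H2ac4) to 0.14 (H2ac6), so members with and without a lower signal both hold it. 

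The variant histones, which are made outside S phase as well, were compared from a list of 10 measured genes. Of these, 7 were lower, 6 without overlap and 4 at an unadjusted p under 0.05, with a median of -0.64. Over all features the shares were 18.4% and 3.64%. H2ax, which marks DNA breaks when phosphorylated, read 14.86 and 14.65 in controls and 13.88 and 13.39 with spermidine (-1.12 ± 0.26, SE). The centromeric H3 variant Cenpa read 12.30 and 12.10 against 11.56 and 10.41 (-1.21 ± 0.36, SE). Both were lower by as much as many core genes. The H3.3 genes H3f3a and H3f3b, which supply H3 outside replication, differed by -0.65 and -0.71. The H2A.Z gene H2az1 overlapped (16.996 and 16.41 against 16.43 and 15.72). Macroh2a1, a variant of condensed chromatin, was at 0.17, and H1f10, one of the 6 without overlap, lay below background. Dropping control replicate 1 put the list's median at -0.37, and dropping spermidine replicate 2 put it at -0.24; 1 gene passed the unadjusted threshold in each case.

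Among factors that make and destroy histone transcripts, the stem-loop binder Slbp read 12.74 and 11.96 in controls and 11.99 and 10.79 with spermidine (-0.96 ± 0.42, SE). Its second control array lay just under its first spermidine array. The list of 16 measured genes for processing and turnover had 11 lower and 5 higher, and a median of -0.07. Without overlap 0 were lower and 2 higher, against 18.4% and 18.3% of all features. The decapping enzyme Dcp2 stood at -0.40, Lsm11 of the U7 snRNP that cuts histone transcripts at 0.16, the scaffold Casp8ap2 at 0.16 and Sympk of the cleavage complex at 0.24. None of the 16 passed an unadjusted p under 0.05 in either direction, where 3.64% of all features were lower and 3.38% higher. The sign of the list's median changed when control replicate 1 (0.10) or spermidine replicate 2 (0.03) was dropped. It was -0.19 when control replicate 2 was dropped and -0.23 when spermidine replicate 1 was.

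Among 13 genes of histone transcription, 9 were lower, 4 without overlap (18.4% of all features) and 2 at an unadjusted p under 0.05 (3.64% of all features), with a median of -0.26. Npat, the coactivator of histone clusters, read 12.03 and 11.78 in controls and 11.54 and 11.76 with spermidine (-0.26 ± 0.23, SE). Cdk2, the kinase that with cyclin E phosphorylates Npat, read 12.84 and 12.59 against 12.15 and 11.43 (-0.92 ± 0.29, SE). Cdk2 was thus the more clearly separated of the pair. E2f1, an activator of S phase genes, stood at -0.56, the NF-Y subunit Nfyc at -0.51 and the H4 promoter factor Hinfp at -0.15. The list's median ran from -0.55 without spermidine replicate 1 to -0.07 without spermidine replicate 2, and was -0.16 without control replicate 1; the 2 unadjusted calls became 0 in the last 2 cases.

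Histone chaperones carry new histones to DNA. Of 21 measured, 15 were lower, 11 without overlap and 4 at an unadjusted p under 0.05, where 18.4% and 3.64% of all features were; the median was -0.29. The H3-H4 chaperones Asf1a (-0.98 ± 0.32, SE) and Asf1b (-0.83 ± 0.25, SE), the CAF-1 subunit Chaf1b (-0.79 ± 0.25, SE) and Nasp (-0.79 ± 0.35, SE) had the most negative values. Nasp stood at -0.29 when spermidine replicate 2 was dropped, and Asf1a at -0.57 when control replicate 1 was. The chaperones of replication-independent deposition did not share 1 direction: Hira was at 0.23, Cabin1 at 0.26, Ubn1 at 0.19 and Atrx at 0.04, while Daxx was at -0.41 and the Cenpa chaperone Hjurp at -0.52. None of these 6 passed an unadjusted p under 0.05. Dropping spermidine replicate 1 put the list's median at -0.59 with 9 unadjusted calls, and dropping spermidine replicate 2 put it at -0.07 with 0. The median was -0.49 with 2 calls if control replicate 2 was dropped, and 1 call was left if control replicate 1 was.

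Genes of DNA synthesis were lower in 33 of 33 cases, 30 without overlap and 18 at an unadjusted p under 0.05, with a median of -0.69. Of all features 18.4% were lower without overlap and 3.64% at that unadjusted threshold. The sliding clamp Pcna read 17.65 and 17.34 in controls and 17.31 and 16.31 with spermidine (-0.69 ± 0.34, SE). Gins1 (-0.99), Mcm10 (-0.74) and Mcm3 (-0.75), parts of the replication fork helicase or its loading, had the largest statistics of that list. In spermidine replicate 1 the median deviation was -0.42 for the DNA synthesis list and -0.65 for the histone members. In replicate 2 the values were closer, at -1.01 and -1.08. The unadjusted count of 18 became 4 without control replicate 1, 8 without control replicate 2 and 3 without spermidine replicate 2, where the median was -0.42; the shares of all features were then 2.02%, 2.72% and 2.36%. The difference between the lists was not tested, and 0 genes of these lists had an adjusted p under 0.05.

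**Figure D5:**
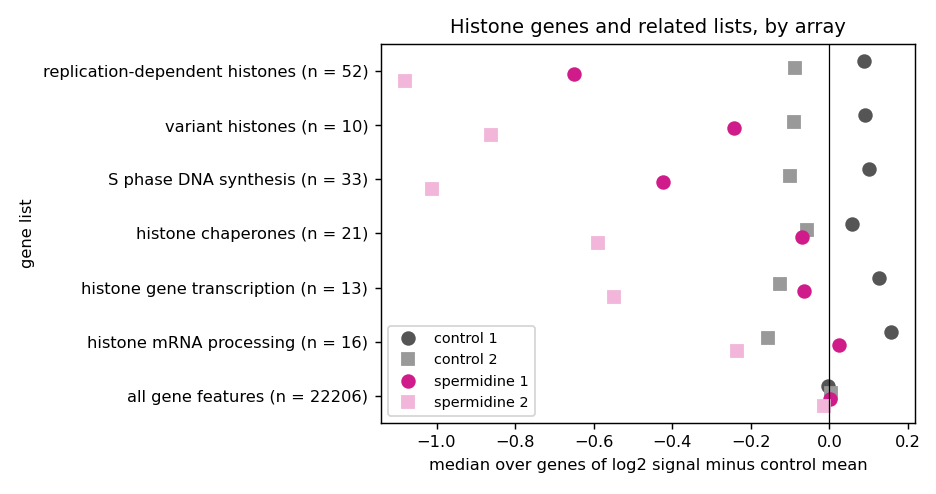
Median over genes of the log2 signal minus the gene's control mean (x axis) for the histone members, 5 related lists and all gene features, in each array (circles replicate 1, squares replicate 2). The histone members and the DNA synthesis list lie left of their control arrays in both spermidine arrays, and all gene features lie close to 0 in every array.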

How the data were processed

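RNA of 2 control and 2 spermidine cultures was measured on 1 Clariom S Mouse array each. Each deposited value is the log2 signal of a feature, which the authors obtained by RMA in Affymetrix Expression Console, per the submitters' processing notes; versions and genome build are not given in the sources used here. The log2 base was inferred from the values (1.72 to 19.93). RMA and the flattening near the top compress differences of dim and of very bright features; 13 members exceeded 16 on some array. The number of arrays limits the precision.

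Control features (6640) were left out and 22206 gene features were tested with limma 3.58.1 in R 4.3.3 (lmFit and eBayes, two-sided). P-values were adjusted by Benjamini-Hochberg over all of them. An exact permutation of 2 against 2 arrays was not used because it cannot reach the threshold. The platform annotation gave 1 symbol to 19572 features and none to 2634. The members and lists were chosen with earlier results of these data known. Of 142 list genes 128 were measured, matched by symbol or synonym, each by its brightest feature.

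Named genes were the H1 genes, in each core type the 4 most negative and 2 least negative features above background, members higher in both arrays, up to 3 genes per list by statistic and genes fixed by name. Others named were chosen after their values were seen. Alternatives changed the prior variance, normalization, filter, feature counting, pairing and arrays used.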

Additional observations from a re-analysis of the deposited data

How the results depend on the processing

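With 2 arrays per group and signals near background or the top of the scale, the precision of single genes is low. The count of features with an adjusted p under 0.05 (limma), 0 with the settings of the report, became 1 with a prior variance following intensity, with median centring, with cyclic loess, among features at or above the median level and with the replicate block; that feature was no histone gene, as the lowest adjusted p of a member over all settings was 0.193. The replicate numbers were not shown to pair cultures (correlation of same-numbered deviations 0.21 over features, 2 pairs), and the replicate block left the histone count at 42 lower at an unadjusted p under 0.05. Leaving out 1 array gave counts from 12 to 41, and median differences from -1.08 to -0.65 for all members, -1.66 to -0.65 for H2A, -0.93 to -0.75 for H2B, -1.74 to -0.61 for H3 and -0.85 to -0.65 for H4. Signs turned when 1 array was left out for H2bc4 (-0.18 to 0.080), H1f8 (-0.19 to 0.57), H2al1m (-0.75 to 0.27), Lsm11 (-0.29 to 0.61), Dcp2 (-0.81 to 0.015) and Hinfp (-0.55 to 0.26); the cause was not tested. Of 783 values of the other named genes 775 kept sign and side of the adjusted threshold. As 0 features passed that threshold with the settings of the report, the side could change only by a new call. Of 144 values of the main results 136 were kept by looser rules. A count was kept if its ratio to the main count stayed within a set bound. A median was kept if it held its sign and moved by no more than the spread of array medians within groups. H1f2 was judged as the named genes were. Changes of the prior, the block or the filter leave each difference as it is, so no sign could turn under them.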
